A study of Mus musculus with 6 samples.

Results

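A group of 197 genes is described here that the array annotation knew only by the names of RIKEN cDNA clones, such as 1700012A16Rik. RIKEN clone names begin with 4 digits that stand for the library the cDNA was cloned from, and the names chosen here share their first 4 digits with 1700012A16Rik, 4930511M11Rik, 4931417E11Rik, 4932414N04Rik or 4933432K03Rik, which come from libraries of adult mouse testis. The genes were taken from the authors' deposited table of probe sets that differed at least 4-fold between primary Sertoli cells and a Sertoli cell line, as every listed symbol with such a prefix and the ending Rik, for which 223 probe sets gave 197 of the table's 2332 genes. By prefix there were 95 genes of the 1700 library, 67 of that of 4930511M11Rik, 4 of that of 4931417E11Rik, 7 of that of 4932414N04Rik and 24 of that of 4933432K03Rik. Each library is called here by 1 of its clones. Another 6 clone probe sets carried several symbols and were not counted.

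The arrays compared primary Sertoli cells of C57BL/6 x 129 mice (3 samples) with the line MSC-1 (3 samples), both as cell aggregates, and the study asked which genes set these apart in relation to the survival and protection of transplanted cells. Aggregation took 48 h in Ham's F10 medium with supplements and 10% serum, and neither received a treatment. Sertoli cells line the seminiferous tubule and support its germ cells, and MSC-1 is a line from a testicular tumour of a mouse whose SV40 large T antigen was driven by the promoter of Müllerian inhibiting substance, a Sertoli cell hormone. The donor mice were 10 to 20 days old by the growth protocol, and 19 to 20 days old by the design text. No label says that replicates came from different cultures or mice, so every spread below is the spread between these samples, which may be technical.

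The adult testis is rich in spermatocytes, the germ cells in meiosis, and in spermatids, the haploid cells that build the sperm tail. Meiosis needs proteins that pair and recombine chromosomes and tie their ends to the nuclear envelope. The sperm tail is a flagellum, a bundle of microtubules called the axoneme with motors, spokes and linkers that it shares with motile cilia elsewhere in the body. Testis germ cells also transcribe many long non-coding RNAs and genes with no described role, and its libraries yielded many clones that are still known by number.

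Nearly all of the clone genes were higher in the primary cells. On every one of the 3 primary arrays 194 of the 197 genes lay above all 3 MSC-1 arrays, and the other 3 genes lay below them. The values are array signals as deposited, and differences are given on the scale of log2(signal + 16). On it the median difference of the 197 genes was 3.10 (primary minus MSC-1), against -0.01 over all 45037 probe sets. Over the 2135 other listed genes it was 2.04, a signed median of both sides with 891 genes higher in MSC-1. The distance of 2.04 from 3.10 is therefore no comparison of size. On the primary side alone the median fold in the authors' deposited table was 12.1 for the clones and 8.99 for the other genes. By limma's moderated test with Benjamini-Hochberg adjustment over all probe sets (threshold 0.05), 194 clone genes were called higher in primary cells, where 19.1% of all probe sets were called, and 3 higher in MSC-1, where 21.9% of all were called. Groups that did not overlap were found for 24.1% of all probe sets with primary above and for 27.1% with MSC-1 above. The genes were listed for their size in this same contrast, so these counts describe the list and test nothing.

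The clones lay on the primary side in a larger share than the rest of the table. Of the clone genes 98.5% were on the primary side, compared with 58.3% of the other 2135 genes in the table (1244 genes). RIKEN clones from 68 other library prefixes divided almost evenly, with 77 of 146 genes (52.7%) on the primary side. Among the larger of those prefixes, 3 of 10 genes of 2610 and 3 of 9 of 2810 were higher in primary cells, while 8 of 10 genes of 4921 were. The tissues behind the other prefixes, 4921 among them, were not looked up, so they cannot be read as libraries without testis. These shares are descriptions of a list selected by size, and no test of the difference was made.

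The signals of the clones went from the upper part of the array to the lower part. Their median signal was 185, 251 and 244 on the primary arrays and 5.68, 6.25 and 5.83 on the MSC-1 arrays (194 genes higher in primary cells). The median of a whole array was between 23.0 and 29.8. The 1244 other listed genes higher in primary cells had medians of 236, 266 and 268 on the primary arrays. On the MSC-1 arrays these were 9.284, 9.495 and 9.48, so the pattern is shared by the listed genes of this side. All 194 lay above the array median on each primary array, and 123 lay above the upper quartile on each. In MSC-1 160 of them lay below the array median on all 3 arrays, and 58 below the lower quartile. The median standard error of a clone's log2 difference was 0.17, and the median coefficient of variation among the 3 primary samples was 18.9%. In bulk samples, fewer cells of a type and less RNA per cell cannot be told apart.

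**Figure D1:**
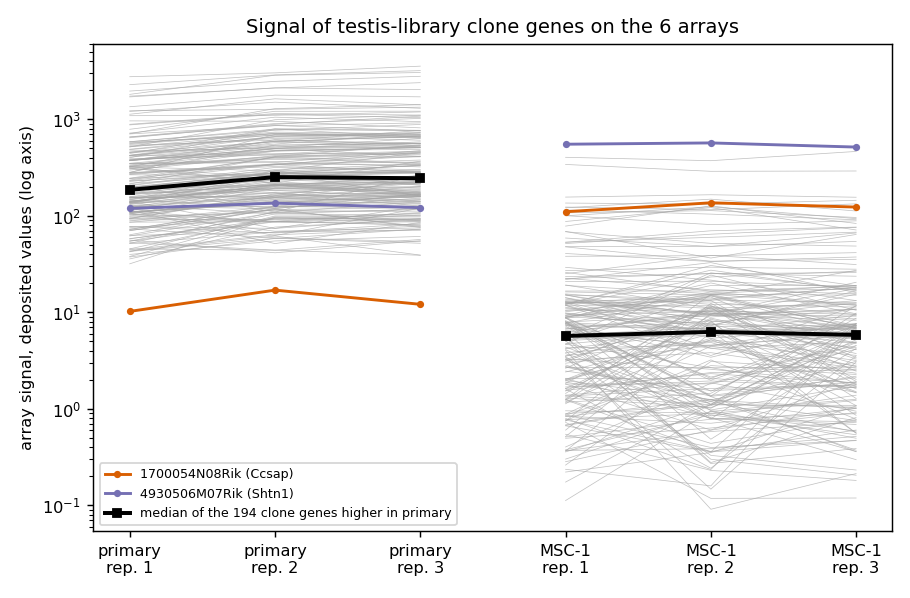
Deposited signal (log axis) of the clone genes on the 3 primary and the 3 MSC-1 arrays, a grey line per gene higher in primary cells, coloured lines for 2 genes higher in MSC-1, and black squares for the median of the 194. The median is 185 to 251 in primary cells and 5.68 to 6.25 in MSC-1, and Ccsap and Shtn1 run the other way.

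Part of these genes have been named or annotated since the array was made. RefSeq (assembly GRCm38.p6) matched 157 of the 197 symbols: 87 keep their clone name, 67 have a new name, 2 carry a predicted name and 1 another clone name. A further 39 symbols had no match and 1 was ambiguous. Of the matched genes 97 are annotated as protein-coding and 55 as long non-coding RNA. The coding genes had a median fold of 17.0 in the authors' deposited table (94 genes higher in primary cells), the long non-coding RNAs 12.3 (55 genes), and the 40 symbols with no unambiguous match 8.60. Symbols with no match made up 31.3% of the clones of the 4930511M11Rik library (21 of 67) and 12.6% of the 1700 clones (12 of 95). The X chromosome, which is silenced in spermatocytes during meiosis, held 5 of the 127 clone genes with a RefSeq promoter window (3.94%), against 3.87% of all 27025 genes with one.

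The sequence in front of the clones was examined because meiotic and ciliary genes are known to share promoter elements. RefSeq gives windows from 250 bases before to 50 bases after the start of transcription for 127 of the clone genes (144 windows). A-MYB is the transcription factor of pachytene spermatocytes and binds the letters GGCAGTT, and RFX factors, regulators of ciliary genes, bind the X-box, searched here as GTTGCC, any 2 bases and GGNAAC. Both were searched on both strands. The X-box occurred in 7 of the 144 clone windows (4.86%), compared with 98 of all 32851 windows (0.298%), 0.724% of the 1243 windows of other genes listed as higher in primary cells and 0.1225% of the 816 windows of genes listed as higher in MSC-1. The windows of 2 of the 7 genes share the same stretch of DNA, so the 7 windows hold 6 separate sites. A match is a description of the letters and no sign that a factor binds.

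The X-box matches that lie upstream of the start are shown with up to 15 bases on either side, 5′ to 3′ on the strand of the gene and with the match in capitals, in GRCm38.p6. That of 1700010I14Rik is at chr17:8988293-8988332 (+), that of Pifo at chr3:106001498-106001532 (-), that of 1700034J05Rik at chr6:146954425-146954468 (-), that of Ccdc175 (4930403N07Rik) at chr12:72185030-72185058 (-) and that of Dnaaf6 at chr1:31222765-31222808 (+).
1700010I14Rik: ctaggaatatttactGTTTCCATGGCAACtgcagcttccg
Pifo: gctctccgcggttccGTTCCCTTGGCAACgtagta
1700034J05Rik: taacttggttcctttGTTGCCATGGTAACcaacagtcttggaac
Ccdc175: gacgtcagcgtcgtcGTTGCCCTGGCAAC
Dnaaf6: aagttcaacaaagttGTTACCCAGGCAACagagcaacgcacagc
These matches begin between 14 and 59 bases before the start. The remaining site, of Ssmem1, begins 7 bases after it. Pifo (1700027A23Rik), pitchfork, acts at the base of the cilium, Dnaaf6 (4930521A18Rik) is a chaperone partner that preassembles dynein arms in the cytoplasm, and 1700010I14Rik is one of the 4 clones with the highest primary signals.

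The MYB motif occurred in 19 of the 144 clone windows (13.2%, 19 genes), against 4.12% of all windows, 5.71% of those of other genes listed as higher in primary cells and 4.04% of those listed as higher in MSC-1. It was found in 18.8% of the 48 windows of long non-coding clones, where 4.44% of all long non-coding windows hold it, and in 10.4% of the 96 coding ones, against 3.94%. Sites are shown for clones with a known role or family, a co-chaperone, a pair of axoneme proteins and a mitochondrial carrier, again on the strand of the gene with the motif in capitals, where AACTGCC is the same motif on the opposite strand. They lie at chr3:88296884-88296920 (-) for Tsacc, chr7:83794874-83794910 (-) for Cfap161, chr16:38341935-38341971 (-) for Maats1 and chr3:109080431-109080467 (+) for Slc25a54.
Tsacc: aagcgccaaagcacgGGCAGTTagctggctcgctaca
Cfap161: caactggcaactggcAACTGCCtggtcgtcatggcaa
Maats1: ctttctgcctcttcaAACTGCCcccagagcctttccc
Slc25a54: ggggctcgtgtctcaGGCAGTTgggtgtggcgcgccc
These motifs begin 67, 56, 96 and 53 bases before the start. The other letters searched were closer to the background: the cAMP response element TGACGTCA, bound by the spermatid factor CREM, was in 2.78% of clone windows and 1.79% of all, CCAAT in 41.0% and 37.4%, and TATAAA in 9.03% and 13.6%.

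**Figure D2:**
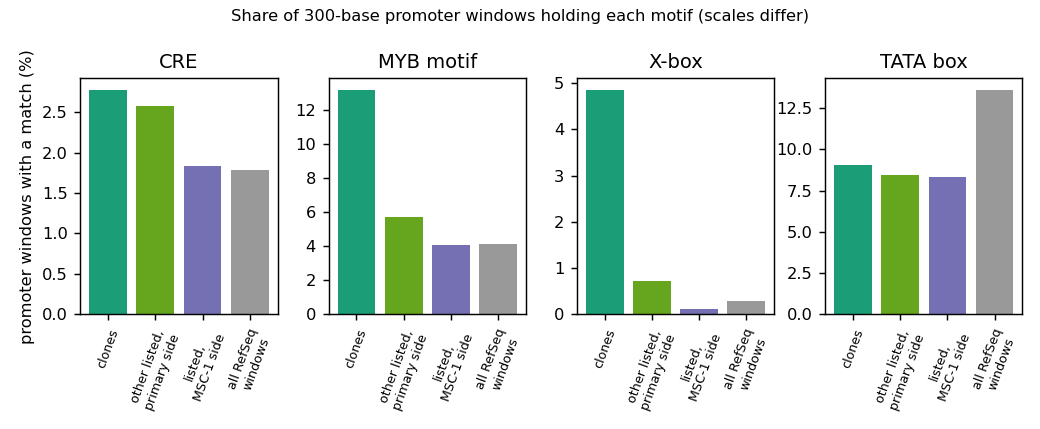
Share of RefSeq promoter windows with a match to each motif (bars from 0, with a different scale in each panel), for the clones, for other listed genes higher in primary cells, for listed genes higher in MSC-1 and for all windows. The clones hold the MYB motif in 13.2% and the X-box in 4.86% of windows, against 4.12% and 0.298% of all windows.

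Dnaaf6 and the long non-coding 4931428L18Rik were the only 2 clone genes with both motifs, and they face each other with starts 183 bases apart, so that each window contains the same X-box and the same MYB motif. The 250 bases in front of Dnaaf6, chr1:31222589-31222838 (+), show both in capitals, the X-box first.
Dnaaf6: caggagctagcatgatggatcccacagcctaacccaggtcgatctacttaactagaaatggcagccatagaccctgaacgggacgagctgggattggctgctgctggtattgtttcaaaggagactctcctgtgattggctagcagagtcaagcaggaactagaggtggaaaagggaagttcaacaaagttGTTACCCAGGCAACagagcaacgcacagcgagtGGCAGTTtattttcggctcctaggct
4931428L18Rik had signals of 108, 146 and 147 in primary cells and 5.82, 6.93 and 1.61 in MSC-1, a log2 difference of 2.85 ± 0.16 (SE), and Dnaaf6 differed by 3.42 ± 0.17 (SE). In MSC-1 neither gene exceeded 10 on any array.

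Genes of meiosis formed the first group with known roles, 6 of 6 of them higher in primary cells. The groups by role were put together after the values had been seen, from the RefSeq names, and are used to order the description only. Of all clone genes 98.5% were on the primary side, and 0 of the 197 overlapped between primary and MSC-1 samples. The counts by role and the lack of overlap given below therefore restate how the list was made, and are no result about a role. Syce3 (1700007E06Rik), a protein of the central element of the synaptonemal complex that holds paired chromosomes together, had signals of 452, 511 and 631 in primary cells and 8.79, 0.844 and 1.38 in MSC-1, a log2 difference of 4.81 ± 0.19 (SE). Meiob (4930528F23Rik), a single-stranded DNA binding protein of meiotic recombination, had 133, 173 and 126 against 4.21, 6.24 and 5.45, a difference of 2.90 ± 0.14 (SE). In both genes every primary sample stood far above every MSC-1 sample.

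Majin (1700123I01Rik) and Terb2 (4933406J08Rik) are partners in the complex that fixes telomeres to the nuclear envelope in meiosis. Majin signals were 149, 183 and 152 in primary cells and between 8.90 and 12.4 in MSC-1. Terb2 signals were 104, 69.1 and 74.8 in primary cells and 11.8, 3.56 and 11.6 in MSC-1, and its log2 difference of 1.98 ± 0.20 (SE) was below that of Majin, 2.72 ± 0.13 (SE). Meikin (4930404A10Rik), which makes sister kinetochores face the same pole in meiosis I, had 57.6, 92.6 and 87.0 against 0.745, 12.4 and 1.92. The groups did not overlap in any of these 3 genes.

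Shcbp1l (1700012A16Rik), a spindle protein of spermatocytes, had the largest fold of any clone in the authors' deposited table, 107.5. Its signals were 705, 1286 and 1412 in primary cells (1134 ± 377, SD, n = 3) and 7.40, 1.52 and 6.48 in MSC-1 (5.13 ± 3.16, SD, n = 3). Replicate 1 was the lowest of the primary samples.

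Proteins of the axoneme and of its assembly were the largest group with a known role, 13 of 13 higher in primary cells. Cfap206 (1700003M02Rik), a protein at the base of the radial spokes, had the largest fold and log2 difference of them, with signals of 1345, 1773 and 1703 in primary cells and 10.5, 14.4 and 3.39 in MSC-1, a log2 difference of 6.01 ± 0.20 (SE). Cfap161 (1700026D08Rik), found inside the axonemal microtubules, had 371, 572 and 561 against 3.22, 10.3 and 9.51. Cfap299 (1700007G11Rik), a testis protein named with the cilia and flagella associated proteins, had 282, 539 and 559 against 5.49, 0.271 and 0.387. All 3 genes were lowest in replicate 1 among the primary samples.

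Some axoneme genes kept a clear signal in MSC-1. Cfap97 (4933411K20Rik), a protein of motile cilia, had 2277, 2870 and 3180 in primary cells (2776 ± 459, SD, n = 3) and also 403, 371 and 463 in MSC-1, and differed by 2.70 ± 0.16 on the log2 scale (SE). Cfap126 (1700009P17Rik), known as Flattop and needed to place basal bodies, had 328, 470 and 511 in primary cells and 99.8, 124 and 93.2 in MSC-1, close to the limit of the list. Ccdc181 (4930455F23Rik), a microtubule-binding protein of the sperm flagellum, had 872, 1119 and 1037 against 100.1, 80.9 and 88.4. All 3 genes lay above the array median in MSC-1, and still no MSC-1 sample reached a primary one.

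Dnaaf6 and Pifo, the axoneme genes with an X-box, showed the same order. Dnaaf6 had 141, 209 and 166 in primary cells against 4.04, 0.091 and 0.213 in MSC-1. Pifo had 243, 344 and 412 against 2.07, 2.06 and 7.36. Maats1 (4932425I24Rik), also called Cfap91, a radial spoke protein, had 108, 135 and 157 against 13.1, 10.9 and 2.45. Each MSC-1 sample of these genes was below the median of its array. The rest of the group included Cfap61, Ccdc172 and Spaca9, with mean primary signals of 92.1, 167 and 136 and mean MSC-1 signals of 1.18, 0.675 and 19.9, and Ccdc173, with 380, 524 and 505 in primary cells and 47.9 to 54.1 in MSC-1.

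Genes of sperm and spermatid proteins followed the same direction in 4 of 4. Tsacc (1700021C14Rik), a co-chaperone of the testis-specific kinase TSSK6, had 642, 884 and 1073 in primary cells and 47.5, 33.8 and 35.3 in MSC-1. Ssmem1 (1700025E21Rik), a membrane protein of spermatids, had 566, 707 and 698 against 15.2, 7.35 and 15.4. Mgat4d (4933434I20Rik), a testis inhibitor of a Golgi glycosyltransferase, had 217, 267 and 289 against 7.93, 0.958 and 0.495. Prss44 (1700036D21Rik), a serine protease of the testis, differed from the other 3 in that replicate 2 was the lowest primary sample, with 125, 118 and 169 against 6.13, 10.5 and 6.96.

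Transcripts named for an opposite or neighbouring gene were another 5 of 5 higher in primary cells. Med9os (1700013G23Rik) had signals of 884, 1143 and 1101 in primary cells and 115, 104 and 90.8 in MSC-1. Cep83os (4932415G12Rik) had 516, 710 and 677 against 53.0, 69.8 and 76.2. Znrd1as (1700022C21Rik), which RefSeq annotates as coding, had 577, 679 and 667 against 123, 115 and 133. The groups did not overlap in any of these, and the median fold of the 5 genes in the authors' deposited table was 7.17.

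The remaining renamed genes have few or no described roles, and their names mostly record a family. Mroh4 (1700016M24Rik), a maestro heat-like repeat family member, was among the steadiest, with 1086, 1096 and 1188 in primary cells and 1.55, 2.37 and 2.52 in MSC-1, a log2 difference of 5.97 ± 0.11 (SE). Tmbim7 (4930511M11Rik), of the BAX-inhibitor-motif family of membrane proteins, had 1221, 1266 and 1331 against 7.90, 9.47 and 10.8. Spin2d (4930408F14Rik), a spindlin family gene on the X chromosome, was far less even, with 280, 695 and 685 against 7.79, 6.69 and 1.08. In Mroh4 and Tmbim7 the 3 primary samples lay close together, and in Spin2d replicate 1 stood apart from the others.

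Other renamed genes on the primary side included Stpg4 (1700011E24Rik), with 440, 797 and 767 against 6.36, 0.277 and 0.812, and the neighbouring names Ms4a19 and Ms4a20 of the membrane-spanning 4A family, with mean primary signals of 354 and 318 and mean MSC-1 signals of 2.48 and 3.82. Rfx8 (4933400N17Rik), a member of the RFX family of transcription factors, had 108, 138 and 158 against 0.753, 3.21 and 0.780. Slc25a54 (4930443G12Rik), of the mitochondrial carrier family, had 37.3, 58.1 and 72.6 against 1.24, 0.358 and 7.58. None of these genes overlapped between the groups.

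The 4 clones with the highest signals in primary cells were Fam229b, Cfap97, 1700018B24Rik and 1700010I14Rik, and a signal also depends on how well the probes bind, so it does not rank genes by RNA amount. Fam229b (1700025K23Rik), a small protein with no described role, had 2751, 3015 and 3541 (3103 ± 402, SD, n = 3), against 135, 132 and 144 in MSC-1. Its log2 difference was 4.34 ± 0.13 (SE), and its fold in the authors' deposited table was 20.6. 1700018B24Rik, annotated as a transcribed pseudogene, had 1806, 2852 and 3041 against 1.80, 1.81 and 4.14, and the largest log2 difference of all clones, 7.08 ± 0.21 (SE), with a fold of 75.4 in the authors' deposited table. 1700010I14Rik, a coding gene that keeps its clone name, had 1954, 2462 and 2779 against 9.25, 20.1 and 9.62, and a fold of 72.0 in the authors' deposited table. RNA of a pseudogene and of its parent gene cannot be told apart where probes are shared, and 13 of the 197 probe sets carry a suffix by which the manufacturer marks probes shared between transcripts.

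Several of the largest folds in the authors' deposited table belonged to genes that keep their clone name. 1700086L19Rik, a long non-coding RNA, had 655, 901 and 1018 in primary cells and 0.766, 0.361 and 0.602 in MSC-1, and its fold in the authors' deposited table was 95.7. 1700019A02Rik and 1700020D05Rik, both coding, had mean primary signals of 1067 ± 244 and 867 ± 310 (SD, n = 3) and folds of 90.8 and 77.6 in the authors' deposited table. 4930449C09Rik, 4930403D09Rik and 4930444F02Rik, all long non-coding RNAs, were the next largest of their library after Tmbim7, with mean primary signals of 616, 450 and 379 and mean MSC-1 signals of 3.81, 0.818 and 3.88. Of the clones with the largest folds in the smaller libraries, 4931417E11Rik had 717, 1048 and 942 against 6.75, 9.73 and 9.11, 4932414N04Rik had 265, 261 and 282 against 0.666, 0.357 and 0.472, and 4933432K03Rik had 405, 536 and 565 against 2.06, 0.800 and 0.688. These were followed in the library of 4931417E11Rik by 4931408D14Rik and Potegl (4931423N10Rik), with folds of 28.0 and 15.4 in the authors' deposited table. In that of 4932414N04Rik the next was 4932439E07Rik, a symbol with no RefSeq match, at 11.4 in the authors' deposited table. In that of 4933432K03Rik the next were 4933414I15Rik, the renamed Nt5el (4933425L06Rik) and 4933406F09Rik, at 33.0, 29.4 and 24.1 in the authors' deposited table. The 3 listed probe sets of 4933406F09Rik ranged from 5.376 to 26.04 there, so its rank depends on the probe set taken. The groups did not overlap in any of these genes.

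Clones of the 1700 library had larger folds than those of the other libraries with more than 4 genes. Their median on the primary side was 17.0 in the authors' deposited table (94 genes), compared with 9.71 for the library of 4930511M11Rik (65 genes), 9.76 for that of 4932414N04Rik (7 genes) and 9.01 for that of 4933432K03Rik (24 genes). The 4 genes of the 4931417E11Rik library had a median of 21.7 in the authors' deposited table. Of the 194 genes 86 differed by 16-fold or more in the authors' deposited table and 16 by 50-fold or more, of which 14 were 1700 clones and 2 (Tmbim7 and 4930449C09Rik) were of the 4930511M11Rik library. Among coding genes alone the medians in the authors' deposited table were 21.1 for 1700 (52 genes), 12.5 for the library of 4930511M11Rik (26 genes) and 15.3 for that of 4933432K03Rik (10 genes). Other listed genes on the primary side had a median of 8.99 and the other RIKEN clones of 7.42 in the authors' deposited table.

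**Figure D3:**
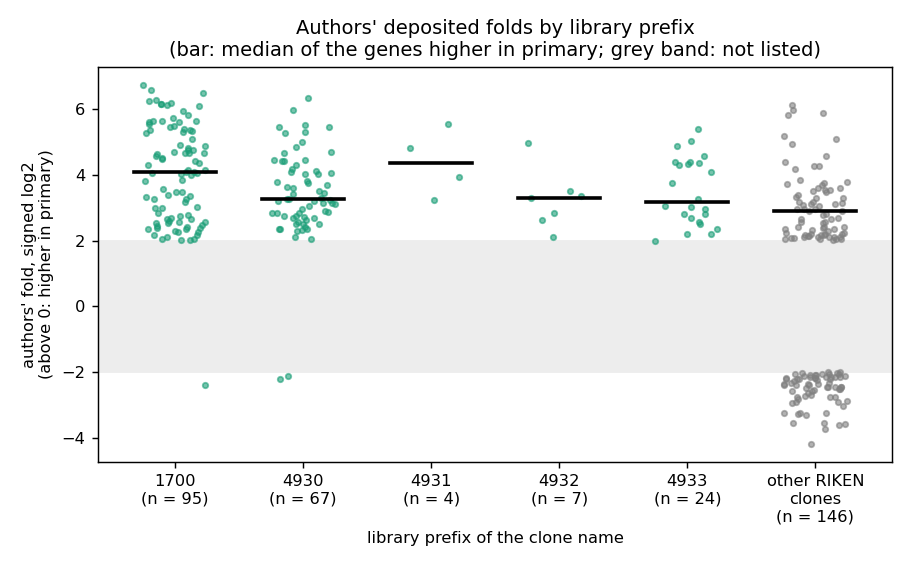
Signed log2 of the fold in the authors' deposited table for each clone gene by library prefix, with the 146 RIKEN clones of other prefixes at the right; each point is a gene, black bars are medians of the genes higher in primary cells, and the grey band holds folds under 4, which are not listed. All but 3 of the 197 clone genes lie above the band, while 69 of the 146 other clones lie below it.

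The list ends at a fold of 4, and the clones just inside it differed widely in signal. 4933424G06Rik (4.005 in the authors' deposited table) had 52.5, 44.0 and 38.9 in primary cells and 4.25, 4.57 and 5.71 in MSC-1. 1700009N14Rik (4.033 in the authors' deposited table) had 114, 51.4 and 85.2 against 16.2, 15.1 and 6.75, a wide spread in primary cells. 4930515G13Rik (4.128 in the authors' deposited table) had 42.6, 58.4 and 51.8 against 10.5, 10.2 and 3.27, and the smallest log2 difference on the primary side, 1.49 ± 0.17 (SE). Fam90a1b (4932442L08Rik) and Erich6 (4932431H17Rik), the smallest of the 4932414N04Rik library, had mean primary signals of 47.9 and 50.8, and 4933433G15Rik, at 4.58 in the authors' deposited table, had 88.3, 125 and 129 against 12.7, 9.50 and 17.5. Cfap126 (4.04 in the authors' deposited table) was at the limit with mean signals of 436 in primary cells and 106 in MSC-1. Clone probe sets with folds just under 4 were not analysed here, because only the listed probe sets have gene names in the files.

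Of the 3 clone genes higher in MSC-1, 2 are described here, and both have roles described outside germ cells. Ccsap (1700054N08Rik), a protein of centrioles, spindles and cilia, had signals of 10.2, 16.9 and 12.1 in primary cells (13.1 ± 3.5, SD, n = 3) and 110, 136 and 123 in MSC-1 (123 ± 13, SD, n = 3), a log2 difference of -2.26 ± 0.14 (SE). Shtn1 (4930506M07Rik), shootin, which links the actin cytoskeleton to adhesion in growing axons, had 119, 135 and 121 in primary cells and 550, 567 and 514 in MSC-1, a difference of -1.99 ± 0.11 (SE). In primary cells Shtn1 kept a signal over 100 on all 3 arrays, while Ccsap lay below the array median on each. Other microtubule proteins among the clones went the other way: Cep128 (4930534B04Rik), a centriole appendage protein, averaged 666 in primary cells and 93.2 in MSC-1, and Map10 (4933403G14Rik), which stabilises microtubules in dividing cells, averaged 180.3 and 0.473. The probe sets read for Ccsap and Cep128 are among the 13 with a suffix for probes shared between transcripts. Ccsap had no other listed probe set, and the 3 of Cep128 had folds from 5.096 to 6.11 in the authors' deposited table.

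The authors' folds and the ratios of mean signals parted where the MSC-1 signal was low. For the 87 clones with a mean MSC-1 signal under 5 the authors' deposited table gave a median fold of 19.6, where the ratio of mean signals was 104. For the 76 clones with an MSC-1 signal from 5 to 20 these medians were 9.87 in the authors' deposited table and 21.5 by signals. For the 19 clones with an MSC-1 signal of 50 or more they were 5.20 and 6.73. The ratio of the 2 measures was 5.54 in the lowest signal class and 1.08 in the highest (medians over genes). The sources used here do not give how the folds were computed, so the treatment of low signals behind them is unknown.

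**Figure D4:**
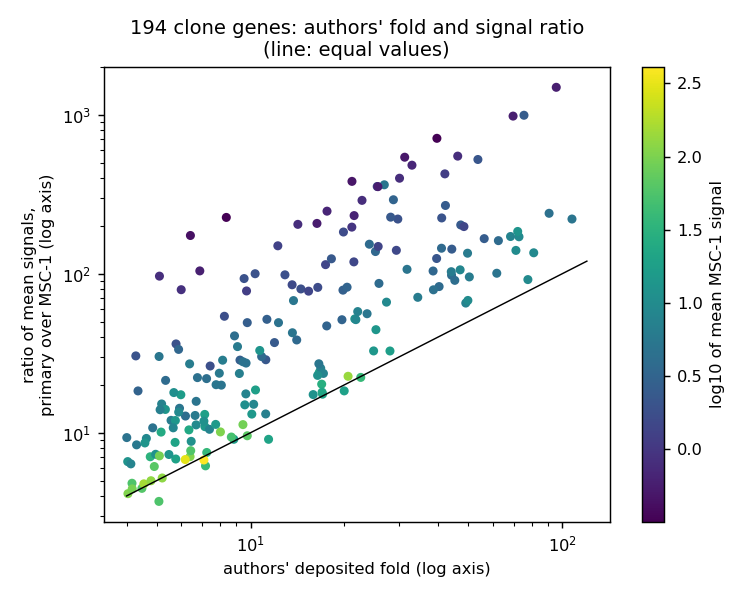
Fold in the authors' deposited table (x, log axis) against the ratio of mean primary to mean MSC-1 signal (y, log axis) for the 194 clone genes higher in primary cells; each point is a gene, its colour is the log10 of its mean MSC-1 signal, and the line marks equal values. Clones with an MSC-1 signal of 50 or more lie near the line, and those under 5 lie above it.

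The 3 primary samples did not carry the clones equally. Replicate 1 was the lowest of the 3 for 162 of the 194 genes (83.5%), replicate 2 for 19 and replicate 3 for 13. Over all probe sets replicate 1 was the lowest for 38%, replicate 2 for 32.7% and replicate 3 for 29.3%, and among probe sets with a mean primary signal of 50 or more replicate 1 was the lowest for 45.5%. Of the other genes listed as higher in primary cells 66.7% had their lowest value in replicate 1. On the log2 scale replicate 1 lay below the mean of the other primary samples by a median of -0.37 for the clones, with a range from -1.26 to 0.65, compared with -0.30 for the other listed genes of that side and -0.01 for all probe sets. This comparison was chosen after the values had been seen.

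The order was counted in the role groups too, with no test between them. Replicate 1 was the lowest in 13 of 13 axoneme clones (median difference from the other samples -0.41) and in 5 of 5 of the antisense group, and in 4 of 6 meiosis clones (median -0.23). By library it was the lowest in 84 of 94 clones of 1700, 54 of 65 of the 4930511M11Rik library and 16 of 24 of the 4933432K03Rik library. Terb2 was highest in replicate 1, and so was 1700009N14Rik.

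A smaller set of 19 clones was lowest in replicate 2. 1700113H08Rik had 141, 73.8 and 125 in primary cells, 1700003E24Rik had 120, 62.3 and 120, and 4933401H06Rik had 208, 109 and 268. The 3 genes were named after their values were seen, as examples of this order. Among listed markers higher in primary cells it was found in 6 of 13 of spermatids, 3 of 7 of Sertoli cells and 3 of 4 of peritubular cells. It was found in 1 of 12 of spermatocytes, 3 of 33 of cilium and flagellum, 0 of 3 of spermatogonia, 0 of 3 of macrophages and 0 of 1 of Leydig cells. Of the other listed genes higher in primary cells 187 of 1244 had this order. Odf1, a fibre protein of the sperm tail, had 124, 54.0 and 113, and Akap4, of the fibrous sheath, had 79.2, 38.6 and 72.6.

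Marker genes of the cell types that such cultures may hold were read beside these values, and only listed genes have names here. Markers that are themselves clones (Meiob, Cfap61, Cfap206 and Pifo) were left out of the listed counts and sums, but not of the list sizes. For germ cells, 3 of 12 markers of spermatogonia, 12 of 27 of spermatocytes and 13 of 26 of spermatids were listed, every one of them on the primary side. The summed signal of the listed spermatocyte markers was 6813, 9168 and 8908 in primary cells and 188 to 279 in MSC-1, that of spermatids 5139, 6099 and 6926 against 195 to 208, and that of spermatogonia 1461, 2169 and 2300 against 42.6 to 49.1. A list of motile cilium and flagellum genes, 33 of 55 listed and all on the primary side, summed to 15289, 19850 and 22170 against 556 to 561. These 4 sums were lowest in replicate 1 among the primary samples, but a sum is carried by its brightest genes. Counted by gene, replicate 1 was the lowest for 3 of 3 spermatogonia, 9 of 12 spermatocyte and 30 of 33 cilium and flagellum markers. Of the spermatid markers 7 of 13 were lowest in replicate 1 and 6 of 13 in replicate 2. The share for other listed genes higher in primary cells was 66.7%.

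Markers of somatic cells were mixed in their order. Of 25 Sertoli cell markers 10 were listed, 7 higher in primary cells and 3 (Gdnf, Trf and Vim) higher in MSC-1. Their sum over both sides was 9477, 9885 and 10087 in primary cells and 10771 to 11307 in MSC-1. In MSC-1 most of it came from Vim (5764, 6617 and 5543) and Trf (4508, 3503 and 4337), so the sums do not show similar marker levels. The 7 on the primary side had folds from 4.389 to 103.0 in the authors' deposited table, and 4 of these 7 were lowest in replicate 1. Sox9, the transcription factor that sets Sertoli cell fate, had 131, 204 and 244 in primary cells against 36.4, 39.7 and 28.1, and Cst12, a cystatin of Sertoli cells, had 661, 2318 and 1891 against 7.32, 10.6 and 23.9. Clu, a secreted chaperone of Sertoli cells, was instead highest in replicate 1, with 5623, 3683 and 4355. The 4 of 8 listed peritubular markers were highest in replicate 1 in 4 of 4 cases, and their sum was 2885, 1555 and 1591 against 95.6 to 124.5. The listed Leydig cell marker Star (1 of 6) had 643, 581 and 510 in primary cells, the macrophage markers (3 of 12) summed to 578, 708 and 997, also lowest in replicate 1, and 0 of 6 endothelial and 0 of 4 erythroid markers were listed. The part of these cells in the clones' values was not tested.

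**Figure D5:**
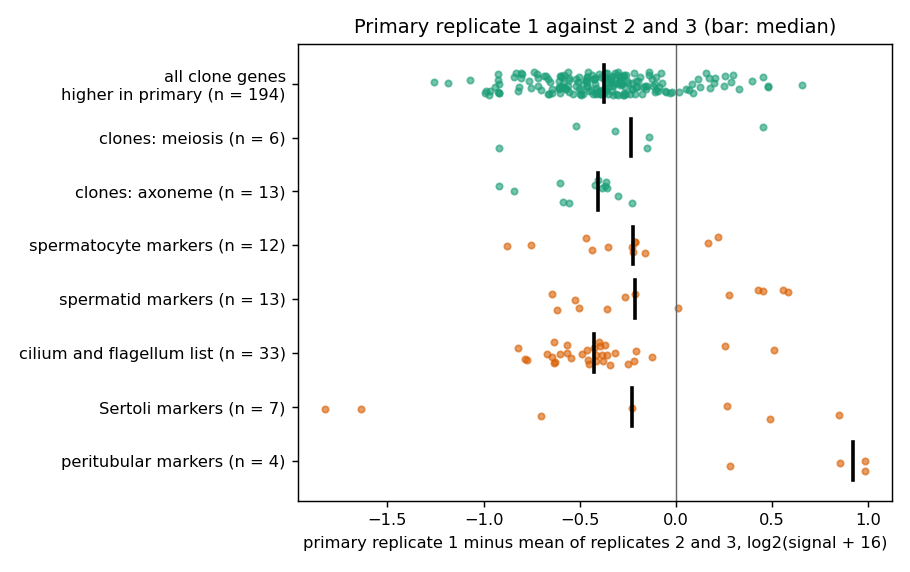
Difference of primary replicate 1 from the mean of replicates 2 and 3 on the log2(signal + 16) scale, for the clones higher in primary cells (green) and for listed marker genes of the same side (orange); each point is a gene and black bars are medians. The clones (median -0.37) and the cilium and flagellum list (median -0.43) lie mostly below 0, and the 4 peritubular markers (median 0.92) lie above it.

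Starts that face another gene were common among the clones. A start of the opposite strand lay within 1000 bases upstream for 32 of the 127 clone genes with a window (25.2%), compared with 12.25% of all genes with one. For 7 of the 32 the partner was itself listed. Spaca9 (1700026L06Rik) faces Ak8, an adenylate kinase found in cilia, and Ccdc173 (4930578N16Rik) faces Phospho2, and in the authors' deposited table both partners were on the primary side, with folds of 56.8 and 13.0. 4930429F24Rik, at 16.4 in the authors' deposited table, faces Tmem30a, a flippase subunit, which was on the other side at -4.63. The remaining partners, 1810044D09Rik of 4930471M09Rik and Cdr2 of Mfsd13b, were on the primary side as well, and Dnaaf6 and 4931428L18Rik are each other's partners, so that 1 of the 7 clones with a listed partner lay opposite to it. Med9os and Cep83os start 67 and 177 bases from Med9 and Cep83, neither of which is listed.

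The promoters of long non-coding clones were also richer in CpG than is common for that class. The observed over expected CpG of their 48 windows had a median of 0.51, against 0.24 over all 11588 long non-coding windows, and 41.7% exceeded 0.6, against 14.0%. Coding clones went slightly the other way, with a median of 0.48 over 96 windows against 0.57 over 21262.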

How the data were processed

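Each of the 6 RNA samples was hybridised to 1 Affymetrix array. The value table that the authors deposited holds an intensity (a positive, linear signal) for 45101 probe sets per array. GCOS is named in the submitters' processing notes, and the sources used here do not give how the arrays were scaled. The array means lay between 179 and 190. The authors deposited signed fold changes (a score of 4 or more in size) for 3198 probe sets, besides 8 blank lines. All 3198 signs matched the ratio of primary to MSC-1 signals, so a positive fold is higher in primary cells.

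For the work described here 64 control probe sets were removed and limma 3.58.1 in R 4.3.3 (lmFit, eBayes) was run on log2(signal + 16) of the other 45037, with no filter, no block and Benjamini-Hochberg adjustment, threshold 0.05. Tested on simulated data on 45037 probe sets, the fit recovered 43% of 100 changes of 1 on the log2 scale and 90% of 100 changes of 2, with 2 false calls and 0 wrong signs. No other probe sets were changed there, while 19.1% of probe sets were called higher in primary cells and 21.9% higher in MSC-1 in the data. The adjustment depends on that share, so the simulated rates need not hold for the data.

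A gene with several listed probe sets (19 genes) took the one with the highest mean over the 6 arrays, and no such gene lay on both sides. Named are the clones higher in MSC-1, of which 1 is not reported here, the 4 largest and 2 smallest folds per prefix, renamed genes by role with values for part of them, the 4 with the highest primary signal and those at the limit of 4. Clones named for a motif, a partner gene or the order of the primary samples are outside that rule and were chosen after the values were seen. The clones, the marker lists and the naming rule were chosen with earlier results of these data known, and the role groups, motifs and comparison of primary samples after the values were seen. Same-numbered samples did not deviate together across the array as a whole (r of -0.04, -0.06 and 0.03 across probe sets). Such a correlation cannot exclude a pairing that touches only part of the probe sets.

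Python 3.11.15, numpy 2.4.6, pandas 2.3.3 and matplotlib 3.10.9 were used. Alternatives changed the pseudocount, the normalization, a filter on low signals, the choice of probe set, a mean-variance trend, the replicate block and each replicate in turn. Names and promoter windows came from RefSeq, GRCm38.p6. The number of arrays limits the precision.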

Additional observations from a re-analysis of the deposited data

How the results depend on the processing

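Under every alternative run, 194 clone genes were called higher in primary cells and 3 higher in MSC-1, except that a filter on low signals tested only 171 and 3 of them. The median log2 difference of the clones, 3.10, became 3.32 with that filter, 4.95 with a pseudocount of 1 and 1.87 with a pseudocount of 64, since most MSC-1 signals are near or below the pseudocount. Leaving out each replicate in turn gave medians from 3.03 to 3.22, with 7262 to 9023 of all probe sets called higher in primary cells and 7871 to 10287 higher in MSC-1, and 194 and 3 clones in each case. With the replicate number as a block the clone counts stayed at 194 and 3 and the median at 3.10, with 8004 and 9025 of all probe sets called, and it changed no call named in the report. Median centring of the arrays changed the split of all calls from 8610 higher in primary cells and 9855 higher in MSC-1 to 6991 and 12898, and the clones' median to 2.94. All 1296 values of the 87 named genes under the alternatives kept their direction and side of the threshold. Replicate 1 was the lowest primary sample for 160 to 167 clones under the 4 alternatives added after the data were seen, against 162. Counts over all clone probe sets of the array, and clones just outside the limit, were not run, since only listed probe sets have names here. Clone signals in MSC-1 lie mostly below the array median, and no detection call was used, so folds there are limited by background that was not measured.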
